A study of Mus musculus with 16 samples.

Results

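The nuclear leucine tRNAs with a TAA or CAA anticodon read the leucine codons TTA and TTG, together written TTR. They were taken as every transcript named tRNA-Leu-TAA or tRNA-Leu-CAA without a mitochondrial or tRX prefix, tRX being a name used for tRNA-like gene copies of low confidence. This gave 9 transcripts of 819 in the fibroblast table and the same 9 of 821 in the heart table, 5 with TAA and 4 with CAA. They belong to the 19 nuclear tRNA-Leu transcripts of each table. The number after the anticodon, as in TAA-1, tells apart transcripts that share an anticodon and differ elsewhere, which are called isodecoders.

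A tRNA with the TAA anticodon pairs with TTA and can also read TTG through wobble at the first anticodon base, whereas the CAA anticodon pairs with TTG. Genes for tRNA-Leu-CAA carry an intron that the TSEN endonuclease removes, and in mammals NSUN2 methylates the first anticodon base of the precursor while that intron is still present. All nuclear leucine tRNAs have a long variable arm, a feature they share with nuclear serine tRNAs, and the cytosolic leucyl-tRNA synthetase charges them.

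The study corrected a mitochondrial mutation with a base editor, and tRNA was sequenced by mim-tRNAseq, which reads tRNA through its modified bases. Mouse embryonic fibroblasts (MEFs) gave 8 libraries, 2 passages each of the lines labelled Ctrl_1, Cl_1, Cl_2 and Cl_3. Hearts of the m.5024T mouse model, named for a change in the mitochondrial gene for tRNA-Ala, gave 8 more. Of these mice 4 had received AAV9-GFP, a cardiac viral vector with a fluorescent control protein, and 4 AAV9-DdCBE, the same type of vector with an editor that converts cytosine in mitochondrial DNA. The labels give no genotype for the MEF lines, no age or strain for the mice, and no meaning for Ctrl, Cl or the X labels of the hearts. AAV9-GFP mice 5 and 6 were labelled 5X and mice 14 and 19 were labelled 3X. AAV9-DdCBE mice 17 and 18 were labelled 10X, mouse 25 was labelled 5X and mouse 26 was labelled 2X. MEF replicates are passages of a line, so p-values measure the spread between passages, and each line stands for itself alone. Hearts are separate mice.

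Sequencing depth ran from 1473330 to 4375975 counts per MEF library and from 1540287 to 3037178 per heart. After a filter on low counts 201 transcripts were tested in the MEFs and 180 in hearts. Mitochondrial tRNA-Ala, the study's target, had 522 ± 93.1 (SD, n = 2) CPM (counts per 1e+06 counts of the library, after TMM scaling between libraries) in Ctrl_1 and means of 143, 261 and 115 in Cl_1, Cl_2 and Cl_3, and 1626 ± 550 (SD, n = 4) in AAV9-GFP against 4025 ± 2026 (SD, n = 4) in AAV9-DdCBE hearts. These abundances carry no allele, so they do not check the labels for editing. The tables hold tRNA only, and the MEF and heart labels could not be compared with marker genes.

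Of the 9 TTR readers, 6 passed the filter in each table: TAA-1, TAA-2 and CAA-1 to CAA-4. TAA-4 and TAA-5 had 0 counts in all 16 libraries, where a count of 0 allows a level of up to 2.04 CPM in the shallowest MEF library and 1.95 CPM in the shallowest heart. TAA-3 had 6 and 7 counts in Ctrl_1, 1 and 0 in Cl_1, 2 and 1 in Cl_2, and 6 and 7 in Cl_3. These counts are too few for a comparison. TAA-3 had 0 counts in each AAV9-GFP heart, and 23, 5, 2 and 0 in AAV9-DdCBE mice 17, 18, 25 and 26. The 16 transcripts named tRX-Leu-TAA or tRX-Leu-CAA together took at most 2 counts in any MEF library and 0 in the hearts.

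The members made up a larger share of leucine tRNA counts in fibroblasts than in hearts. The TTR readers took 31.4% to 35.7% of nuclear tRNA-Leu counts in MEF libraries and 23.9% to 27.0% in hearts. Of all nuclear tRNA counts the direction was the opposite: they took 1.23% to 1.42% in MEF libraries and 1.46% to 1.92% in hearts. Within them the TAA anticodon held most counts in the MEFs, from 65.7% in a Cl_1 library to 78.3% in a Ctrl_1 library. In the hearts its share ran from 38.3% to 51.7%, so CAA held the larger share in 7 of 8 hearts. Shares of counts do not depend on scaling between libraries, but they are not corrected for how readily each tRNA is copied or ligated. The MEF and heart tables were made separately, so tissue and table cannot be told apart and the difference has no test.

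**Figure D1:**
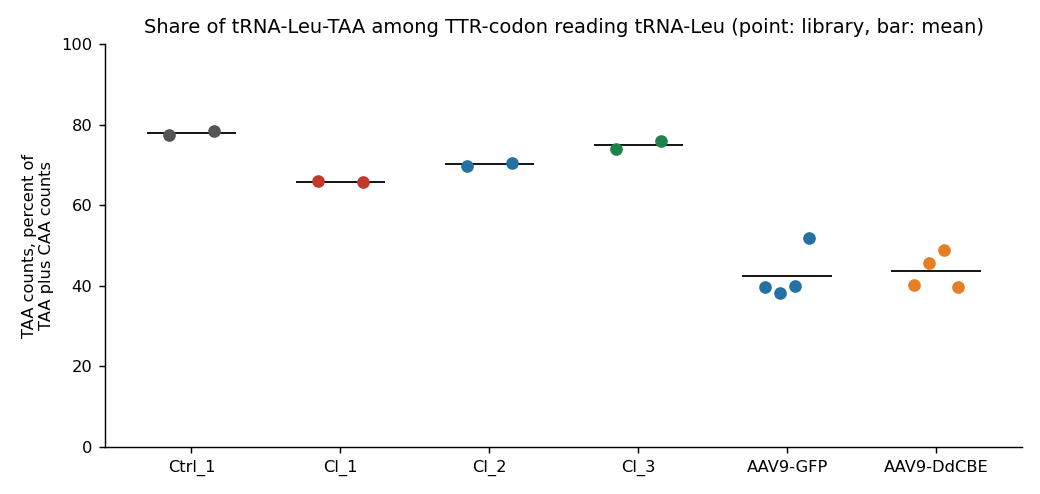
Percent of tRNA-Leu-TAA counts among TAA plus CAA counts for each library (points) with the group mean (bars), in 4 MEF lines with 2 libraries each and 2 groups of 4 hearts. The Cl_1 points sit at 65.7% and 65.9%, below Ctrl_1 at 77.4% and 78.3%, and 7 of 8 hearts lie below 50%.

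Isodecoder make-up also differed between the 2 tables. TAA-2 was the larger TAA isodecoder in all 16 libraries, and TAA-1 held 11.8% to 33.3% of TAA counts in MEF libraries and 31.0% to 37.9% in hearts. CAA-1 held 1.19% to 1.70% of CAA counts in MEF libraries and 15.9% to 23.6% in hearts, with no overlap. CAA-4 ran the other way, with 7.39% to 14.9% in MEF libraries and 0.944% to 1.44% in the 6 hearts not labelled 10X. In the 10X hearts, mice 17 and 18, it held 9.90% and 6.16%, the former inside the MEF range. CAA-2 and CAA-3 together held most CAA counts in every library. Counting error on any of these shares was at most 1.32 percentage points to either side (95% Wilson interval, which covers counting error only).

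**Figure D2:**
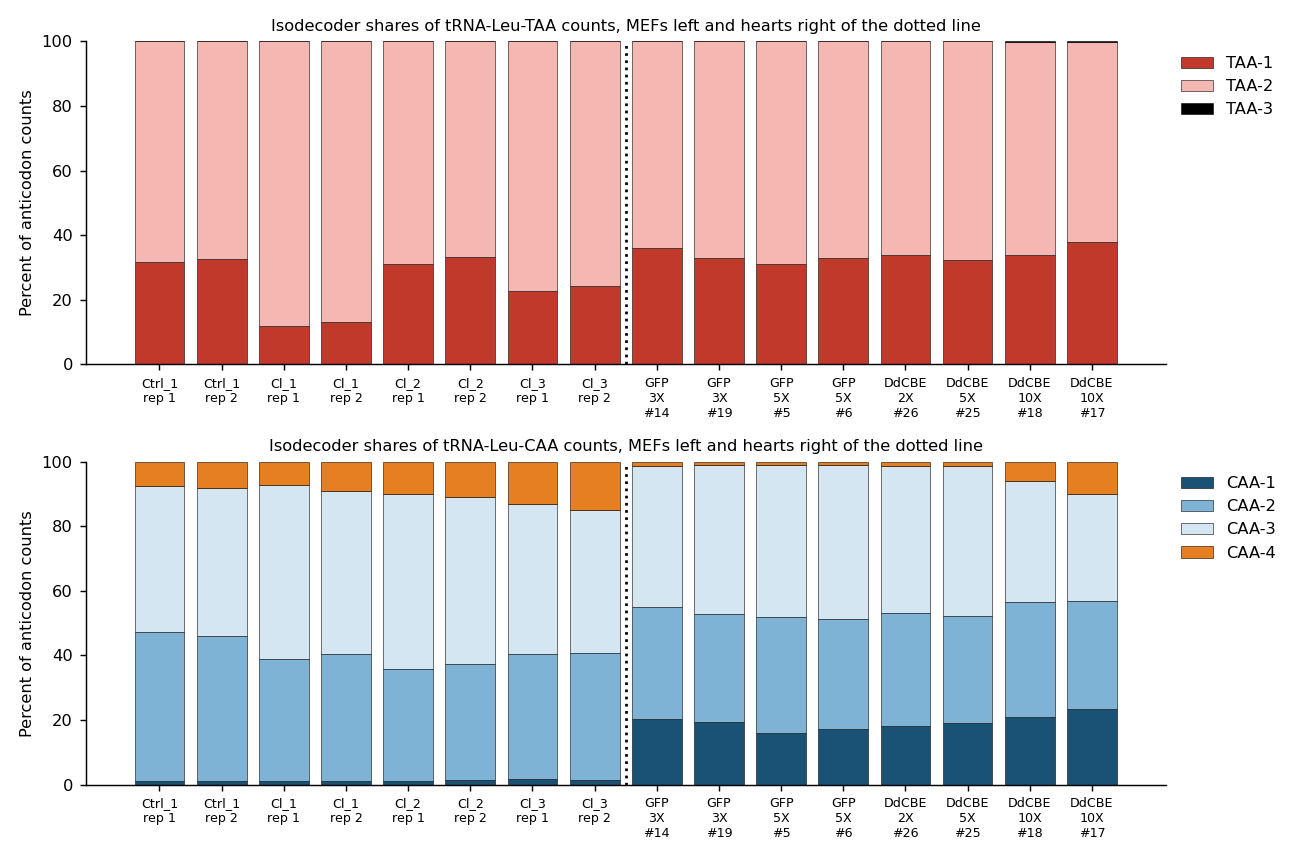
Stacked percent of each isodecoder in the counts of its anticodon, TAA above and CAA below, for each of 8 MEF libraries (left of the dotted line) and 8 hearts (right). The TAA-1 segment is smallest in the Cl_1 libraries, at 11.8% and 13.0%, and the CAA-4 segment is largest among hearts in mouse 17, at 9.90%.

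The first question was whether these tRNAs differ between each Cl line and Ctrl_1. TAA-1 fell in all 3 Cl lines, most in Cl_1, while TAA-2 fell in Cl_2 alone. CAA-4 rose in all 3 lines, CAA-3 rose in Cl_1 and Cl_2, and neither CAA-1 nor CAA-2 passed the main test in any line. The 3 comparisons share the Ctrl_1 libraries and are therefore not independent.

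TAA-1 had 3579.8 and 3652 CPM in Ctrl_1, 975 and 1046 in Cl_1, 2590.1 and 2874 in Cl_2, and 2226 and 2354 in Cl_3. Every Cl library lay below both Ctrl_1 libraries, and the Cl_1 libraries lay far below the other 6. The log2 change against Ctrl_1 was -1.84 (SE 0.09, edgeR adjusted p = 1.92e-05) in Cl_1, a level 3.58-fold lower. In Cl_3 it was -0.66 (SE 0.09, edgeR adjusted p = 0.00109), a level 1.58-fold lower. In Cl_2 it was -0.40 (SE 0.09, edgeR adjusted p = 0.00893), a level 1.32-fold lower. The calls in Cl_1 and Cl_3 held under every alternative run, and the call in Cl_2 was lost with scaling by library totals (-0.30, edgeR adjusted p = 0.0533) and without Cl_2 replicate 1 (-0.31, edgeR adjusted p = 0.0765).

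TAA-2, the major TAA isodecoder, had 7755 and 7526 CPM in Ctrl_1, 7286 and 6999 in Cl_1, 5769 and 5767 in Cl_2, and 7593 and 7326 in Cl_3. The Cl_2 libraries were the lowest of the 8, and Cl_3 overlapped Ctrl_1. The log2 change in Cl_2 was -0.41 (SE 0.06, edgeR adjusted p = 0.00171). It was -0.10 in Cl_1 (edgeR adjusted p = 0.230) and -0.03 in Cl_3 (edgeR adjusted p = 0.701), neither past the threshold.

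The TAA isodecoders therefore changed unequally within the lines. TAA-1 was 0.462 and 0.485 times the TAA-2 count in the Ctrl_1 libraries and 0.134 and 0.149 times in Cl_1. The ratio was 0.449 and 0.498 in Cl_2, on both sides of the Ctrl_1 values, and 0.293 and 0.321 in Cl_3, below them. In Cl_2 both isodecoders fell by a like amount, -0.40 and -0.41 on the log2 scale. In Cl_1 and Cl_3 only TAA-1 passed the test. An added edgeR test (diffSpliceDGE) compared each isodecoder with the sum of the tested transcripts of its anticodon, so that a change common to the anticodon drops out. It was set aside once after its results were seen and then put back. TAA-1 fell relative to TAA in Cl_1, at -1.37 on the log2 scale (edgeR adjusted p = 1.98e-08), where 17.8% of the 169 transcripts in this test passed, and this held under every alternative run. It was 0.00 in Cl_2 (edgeR adjusted p = 0.9996). In Cl_3 it was -0.45 and did not pass (edgeR adjusted p = 0.0580), but it passed in nuclear transcripts alone (0.0275), with the replicate block (0.0157) and without Cl_1 replicate 1 (0.0470) or 2 (0.0468). Relative to TAA, TAA-1 was higher in Cl_2 than in Cl_1 by 1.37 (edgeR adjusted p = 1.84e-08) and higher in Cl_3 than in Cl_1 by 0.92 (edgeR adjusted p = 1.39e-05).

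CAA-3 had 1491 and 1413 CPM in Ctrl_1, 2295 and 2123 in Cl_1, 1954 and 1881 in Cl_2, and 1614 and 1354 in Cl_3. The Cl_1 and Cl_2 libraries lay above both Ctrl_1 libraries, and the Cl_3 libraries lay on either side of them. The log2 change was 0.61 (SE 0.11, edgeR adjusted p = 0.00466) in Cl_1. Cl_2 had 0.40 (SE 0.11, edgeR adjusted p = 0.0204) and Cl_3 0.03 (edgeR adjusted p = 0.859). The Cl_2 call was lost without either Ctrl_1 library or either Cl_2 library, with edgeR adjusted p of 0.0708 and 0.0825 without Ctrl_1 replicates 1 and 2, and 0.0903 and 0.0694 without Cl_2 replicates 1 and 2.

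CAA-4, a minor isodecoder, had 254 and 252 CPM in Ctrl_1, 315 and 386 in Cl_1, 361 and 399 in Cl_2, and 451 and 456 in Cl_3. Each Cl library lay above both Ctrl_1 libraries. The log2 change was 0.84 (SE 0.14, edgeR adjusted p = 0.00336) in Cl_3, a level 1.79-fold higher, and this call held under every alternative run. Cl_2 had 0.58 (SE 0.15, edgeR adjusted p = 0.0153) and Cl_1 had 0.47 (SE 0.14, edgeR adjusted p = 0.0414). The Cl_2 call was lost without Ctrl_1 replicate 1 (edgeR adjusted p = 0.0722), Ctrl_1 replicate 2 (0.0532) or Cl_2 replicate 2 (0.0816). The Cl_1 call was lost without Ctrl_1 replicate 1 (edgeR adjusted p = 0.1502) or 2 (0.135), Cl_1 replicate 2 (0.0870) or Cl_2 replicate 1 (0.0620) or 2 (0.0668), and in nuclear transcripts alone (0.0513).

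CAA-1 and CAA-2 did not pass the main test in any line. CAA-2, about as abundant as CAA-3 in Ctrl_1, had 1516 and 1388 CPM there and 1204 to 1643 in the Cl libraries, with log2 changes of 0.16, -0.18 and -0.19 in Cl_1, Cl_2 and Cl_3 (edgeR adjusted p = 0.246, 0.188 and 0.156). In nuclear transcripts alone CAA-2 passed in Cl_2 (-0.28, edgeR adjusted p = 0.0447) and in Cl_3 (-0.26, edgeR adjusted p = 0.0479). CAA-1 had 41.5 and 38.5 CPM in Ctrl_1 and 45.1 to 59.1 in the Cl libraries, all higher than Ctrl_1. Its log2 changes were 0.37, 0.23 and 0.43 (edgeR adjusted p = 0.139, 0.357 and 0.0727), and with library totals it passed in Cl_3 (0.57, edgeR adjusted p = 0.0277). With 74 to 188 counts per MEF library CAA-1 had the least depth of the 6 members.

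**Figure D3:**
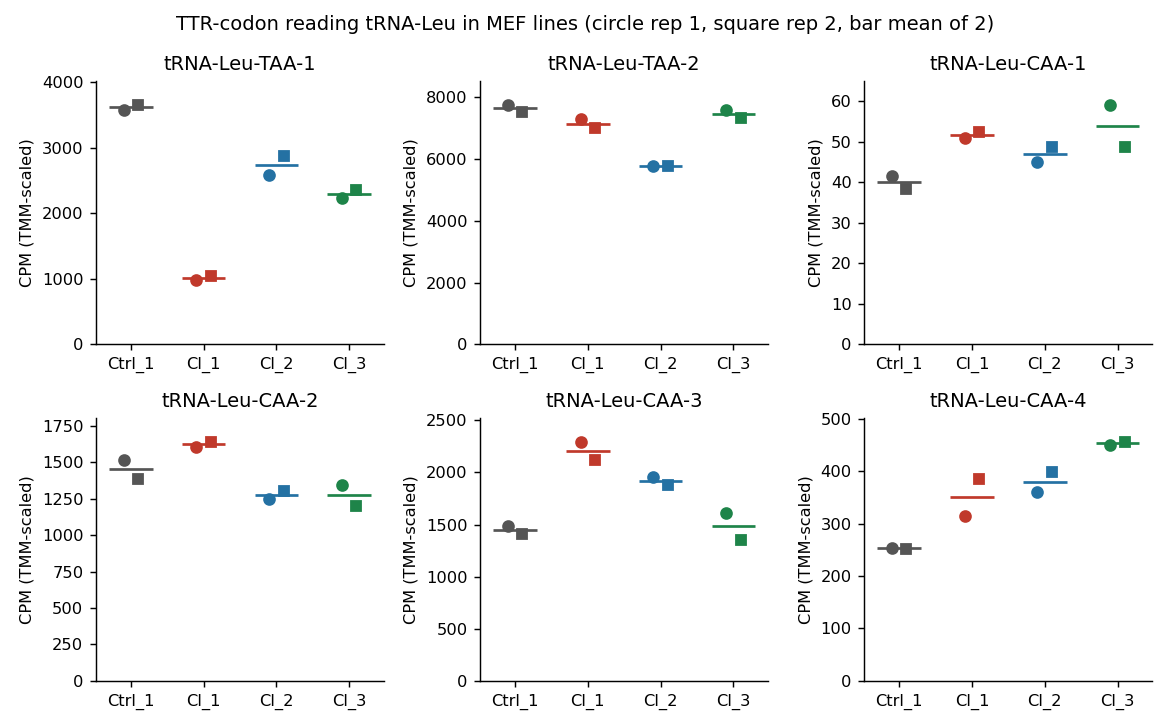
TMM-scaled CPM of the 6 TTR-reading tRNA-Leu isodecoders in 4 MEF lines, with replicate 1 as a circle, replicate 2 as a square and the mean of 2 as a bar. TAA-1 in Cl_1 (975 and 1046 CPM) lies apart from Ctrl_1 (3579.8 and 3652), and CAA-4 in every Cl library lies above Ctrl_1.

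Many transcripts of all kinds changed between the lines, and the members' counts are set beside them. In Cl_1, 3 of the 6 members passed, 2 higher and 1 lower, where 33.8% of all transcripts passed, 14.9% higher and 18.9% lower. In Cl_2 the count was 4 of 6, 2 higher and 2 lower, where 46.3% passed, 25.9% higher and 20.4% lower. In Cl_3 it was 2 of 6, 1 higher and 1 lower, where 50.7% passed, 26.4% higher and 24.4% lower. The median log2 change of the 6 members was 0.27 in Cl_1, 0.02 in Cl_2 and -0.00 in Cl_3, beside -0.01, 0.02 and 0.00 for all transcripts tested. Leaving out 1 library gave 2 to 4 members in Cl_2, 2 to 3 in Cl_1 and 2 in Cl_3. The lowest count in Cl_2 came without Ctrl_1 replicate 1 or 2, or Cl_2 replicate 1 or 2. Those runs also called fewer transcripts in all than the main run.

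**Figure D4:**
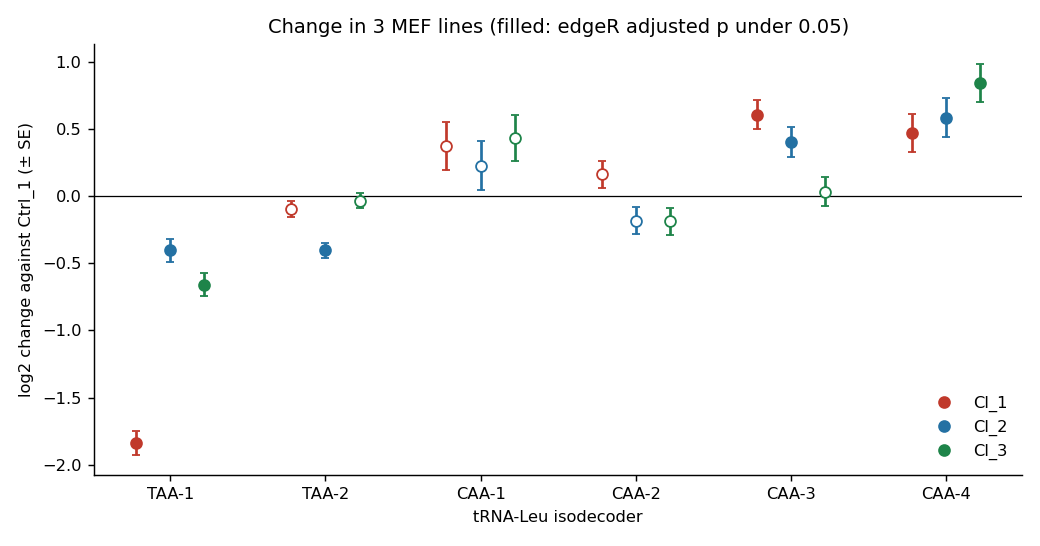
Log2 change against Ctrl_1 (± SE) of each isodecoder in Cl_1, Cl_2 and Cl_3, with filled points where the edgeR adjusted p was under 0.05. TAA-1 lies below 0 in each line, at -1.84, -0.40 and -0.66, and CAA-4 lies above 0 in each, at 0.47, 0.58 and 0.84.

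The second question was whether the Cl lines differ among themselves. An F test over the 3 lines passed for TAA-1 (edgeR adjusted p = 3.03e-04), TAA-2 (0.00824) and CAA-3 (0.0209), 3 of 6 members where 24.4% of all transcripts passed. It did not pass for CAA-2 (edgeR adjusted p = 0.0543), CAA-4 (0.181) or CAA-1 (0.647). CAA-2 passed with DESeq2 (adjusted p = 1.90e-04) and in nuclear transcripts alone (edgeR adjusted p = 0.0228). The TAA-1 result held under every alternative run, with edgeR or DESeq2 adjusted p of at most 0.00679. The TAA-2 call was lost without Cl_2 replicate 1 (edgeR adjusted p = 0.0770) or 2 (0.0532), and the CAA-3 call without Cl_3 replicate 2 (0.103), Cl_1 replicate 1 (0.0754) or Cl_2 replicate 1 (0.0667), so that 1 member was left without Cl_2 replicate 1.

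In pairs, TAA-1 was higher in Cl_2 than in Cl_1 by 1.43 on the log2 scale (edgeR adjusted p = 1.07e-04) and higher in Cl_3 than in Cl_1 by 1.18 (edgeR adjusted p = 2.90e-04). The order of its levels was Ctrl_1, Cl_2, Cl_3 and Cl_1, and the neighbours Cl_2 and Cl_3 did not pass the test of their difference (-0.25 for Cl_3 minus Cl_2, edgeR adjusted p = 0.193). CAA-3 was lower in Cl_3 than in Cl_1, at -0.57 (edgeR adjusted p = 0.00836), which was lost without Cl_3 replicate 2 (-0.49, edgeR adjusted p = 0.0714). TAA-2 was lower in Cl_2 than in Cl_1, at -0.31 (edgeR adjusted p = 0.0108). That difference was lost without Cl_1 replicate 1 (edgeR adjusted p = 0.0620), Cl_2 replicate 1 (0.111) or Cl_2 replicate 2 (0.0636). CAA-2 for Cl_2 against Cl_1 was not called, but it passed with DESeq2 (-0.36, adjusted p = 6.75e-04), in nuclear transcripts alone (-0.40, edgeR adjusted p = 0.0206) and without Cl_3 replicate 1 (0.0480) or 2 (0.0499). CAA-3 for Cl_3 against Cl_2 passed with DESeq2 alone (-0.35, adjusted p = 0.0238), and CAA-4 for Cl_3 against Cl_1 passed without Cl_1 replicate 2 alone (0.48, edgeR adjusted p = 0.0466).

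In these pairs 2 of 6 members passed for Cl_2 against Cl_1, 1 higher and 1 lower, where 16.9% of all transcripts passed, 13.9% higher and 2.99% lower. For Cl_3 against Cl_1 3 of 6 passed, 1 higher and 2 lower, where 25.9% of all passed, 16.9% higher and 8.96% lower. Without Cl_1 replicate 1 or either Cl_2 library the first count fell, and fewer transcripts passed in all. Without Cl_3 replicate 2 the same was true of the other. The third member of the latter was CAA-2, at -0.35 (edgeR adjusted p = 0.0394), a call that was lost with library totals (-0.27, edgeR adjusted p = 0.0902), with no filter (-0.34, 0.115), and without Ctrl_1 replicate 1 (edgeR adjusted p = 0.0609) or 2 (0.0783), Cl_1 replicate 1 (0.0777) or 2 (0.0615), Cl_2 replicate 1 (0.0934) or 2 (0.0679), or Cl_3 replicate 2 (0.207). For Cl_3 against Cl_2 1 of 6 passed, where 0.995% of all transcripts passed and 0.498% were higher. It was TAA-2, higher in Cl_3 by 0.37 (edgeR adjusted p = 0.0422), and it was lost when any of the 8 MEF libraries was left out. Without any of the Ctrl_1 or Cl_1 libraries no transcript of any kind passed in this comparison.

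Summed by anticodon, the TAA total fell and the CAA total rose in Cl_1 and Cl_2. On the scaling of the anticodon totals, TAA had 10578 and 10634 CPM in Ctrl_1, 8244 and 7913 in Cl_1, 8541 and 8689 in Cl_2, and 10382 and 10233 in Cl_3. The log2 change for Cl_1 was -0.39 (SE 0.05, edgeR adjusted p = 2.97e-04) and that for Cl_2 was -0.30 (SE 0.05, edgeR adjusted p = 0.00147). In Cl_3 it was -0.04 (edgeR adjusted p = 0.510), while with the scaling factors of the transcript table it was -0.21 (edgeR adjusted p = 0.00927), so this call rests on the scaling. With those factors 37 of the 74 anticodon totals passed in Cl_3, and the median log2 change of all totals was -0.14. The TAA totals in Cl_1 and Cl_2 were called under every alternative run, at -0.47 (edgeR adjusted p = 1.76e-04) and -0.41 (3.08e-04) with the factors of the transcript table. These totals do not depend on how reads shared by TAA isodecoders were assigned among them.

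CAA totals on the same scaling were 3082 and 2941 CPM in Ctrl_1, 4256 and 4135 in Cl_1, 3689 and 3654 in Cl_2, and 3668 and 3237 in Cl_3. On that scaling every Cl library lay above both Ctrl_1 libraries. The log2 change was 0.48 (SE 0.09, edgeR adjusted p = 0.00463) in Cl_1, which held under every alternative run, at 0.41 (edgeR adjusted p = 0.0136) with the transcript scaling. In Cl_2 it was 0.29 (SE 0.09, edgeR adjusted p = 0.0463), which was lost with the transcript scaling (0.18, edgeR adjusted p = 0.166) and without Ctrl_1 replicate 1 (0.0974) or 2 (0.121), Cl_2 replicate 1 (0.0828) or 2 (0.130), or Cl_3 replicate 2 (0.0572). In Cl_3 it was 0.20 (edgeR adjusted p = 0.130). In Cl_1 the CAA total was thus higher and the TAA total lower, where 23% of the 74 anticodon totals passed, 9.46% higher and 13.5% lower. The same held in Cl_2, where 35.1% passed, 16.2% higher and 18.9% lower. Neither passed in Cl_3, where 27% passed, 12.2% higher and 14.9% lower.

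The balance of the 2 anticodons, which needs no scaling, moved with these totals. TAA made up 77.4% and 78.3% of TTR-reader counts in Ctrl_1, 65.9% and 65.7% in Cl_1, 69.8% and 70.4% in Cl_2, and 73.9% and 76.0% in Cl_3. Each of the 6 Cl libraries lay below both Ctrl_1 libraries, and the libraries of different lines did not overlap. The F test among Cl lines passed for the TAA total (edgeR adjusted p = 0.00715), the 1 called of 74 anticodon totals, or 1.35%, and not for the CAA total (0.251). The TAA call was lost without Cl_1 replicate 1 (edgeR adjusted p = 0.0731) or 2 (0.122), Cl_2 replicate 1 (0.0524), or Cl_3 replicate 1 (0.0547) or 2 (0.0821), leaving 0 of the 2 totals called.

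The TAA total was higher in Cl_3 than in Cl_1 by 0.35 (edgeR adjusted p = 0.00280), where 4.05% of anticodon totals passed and 2.7% were higher, and this was lost without Cl_1 replicate 2 (0.32, edgeR adjusted p = 0.104). It was higher in Cl_3 than in Cl_2 by 0.26 (edgeR adjusted p = 0.0267), where 1.35% passed. Leaving out any MEF library other than Ctrl_1 replicate 2 ended that call, with edgeR adjusted p from 0.0803 to 0.300. Cl_2 and Cl_1 differed by 0.09 (edgeR adjusted p = 0.326), where 0% of the totals passed.

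Within the CAA anticodon the ratio of CAA-3 to CAA-2 and the share of CAA-4 varied between the lines. CAA-3 held 45.1% and 45.7% of CAA counts in Ctrl_1, 53.8% and 50.5% in Cl_1, and 54.1% and 51.7% in Cl_2. In Cl_3 it held 46.5% and 44.2%, on either side of Ctrl_1. CAA-3 was 0.983 and 1.02 times the CAA-2 count in Ctrl_1, 1.43 and 1.29 times in Cl_1, 1.56 and 1.44 times in Cl_2, and 1.20 and 1.12 times in Cl_3, so every Cl library had more CAA-3 per CAA-2 than Ctrl_1. CAA-4 held 7.69% and 8.16% of CAA counts in Ctrl_1, 7.39% and 9.18% in Cl_1, 9.999% and 11.0% in Cl_2, and 13.0% and 14.9% in Cl_3. The Cl_2 and Cl_3 shares lay above Ctrl_1, while those of Cl_1 lay on either side of it. Relative to CAA as a whole, in the added edgeR test, CAA-4 was higher in Cl_3 than in Ctrl_1 by 0.81 (adjusted p = 0.00415), where 27.2% of the transcripts in that test passed, and this was lost without Cl_3 replicate 2 (0.71, edgeR adjusted p = 0.0904). It was higher in Cl_3 than in Cl_1 by 0.75 (edgeR adjusted p = 0.0106), which was lost without Cl_3 replicate 2 (0.191) or Cl_1 replicate 1 (0.161). In Cl_1 and Cl_2 CAA-4 stood at 0.06 and 0.40 (edgeR adjusted p = 0.974 and 0.295), and CAA-3 at 0.20 and 0.22 (0.663 and 0.643), none past the threshold. The count of members was 1 of 6 in Cl_1 and in Cl_3, and 0 in Cl_2, where 18.9% of the transcripts passed.

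The rest of the leucine family gave a setting for these values. Of the other nuclear tRNA-Leu transcripts (AAG, CAG and TAG anticodons), 9 were tested, and 2 rose and 2 fell in Cl_1, 2 rose and 4 fell in Cl_2, and 1 rose and 2 fell in Cl_3. Their median log2 changes were -0.11, -0.27 and -0.15. tRNA-Leu-AAG-2 rose most in each line (0.48, 0.56 and 0.55), and tRNA-Leu-TAG-2 fell most in Cl_1 and Cl_2 (-0.85 and -0.51) and tRNA-Leu-CAG-1 in Cl_3 (-0.41). The mitochondrial tRNA-Leu with the TAA anticodon, which reads TTR codons in the organelle, fell by 0.58, 0.62 and 0.69 on the log2 scale in Cl_1, Cl_2 and Cl_3 (edgeR adjusted p = 0.0100, 0.00753 and 0.00388). The mitochondrial tRNA-Leu with the TAG anticodon fell by 0.99, 0.74 and 1.18. Nuclear tRNA-Ser, another long-arm family, had 4 of 11 tested transcripts higher and 2 lower in Cl_1, 4 and 2 in Cl_2, and 3 and 2 in Cl_3. tRNA-Ser-GCT-5 rose most in each line (1.68, 0.99 and 1.40) and tRNA-Ser-GCT-2 fell most (-0.49, -0.70 and -0.82). Of all transcripts tested, 33.8%, 46.3% and 50.7% passed in Cl_1, Cl_2 and Cl_3.

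The transcripts whose pattern over the 8 MEF libraries was most like TAA-1 were tRNA-Lys-TTT-7 and tRNA-His-GTG-1 (each Pearson r = 0.96) and tRNA-Phe-GAA-2 (r = 0.94). TAA-2 had r = -0.06 with TAA-1 over the same libraries, and the 4 CAA isodecoders had r from -0.76 to -0.30. These correlations are of log2 CPM over 4 lines of 2 passages, which share line and scaling.

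The third question was whether AAV9-DdCBE changes these tRNAs in the heart. In 4 against 4 hearts 0 of 6 members passed, where 0% of all transcripts passed. At an unadjusted p under 0.05 in edgeR 1 member passed, CAA-4, where 19.4% of all transcripts did. DESeq2 called the same 1 of 6, where it called 27 of 180 transcripts, or 15%. The median log2 change of the 6 members was -0.19, beside -0.10 for all transcripts. In whole hearts a change in cell make-up and a change per cell cannot be told apart.

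CAA-4 had 54.2 to 72.0 CPM in the 4 AAV9-GFP hearts. In the AAV9-DdCBE hearts it had 469.7 and 262 CPM in mice 17 and 18, labelled 10X, and 66.2 and 84.6 in mice 25 and 26, labelled 5X and 2X. The 10X hearts lay apart from the other 6, and mouse 25 lay within the AAV9-GFP range. The log2 change over 4 against 4 hearts was 1.74 (SE 0.59, edgeR adjusted p = 0.120). It passed with DESeq2 (1.91, DESeq2 adjusted p = 0.0288) and in edgeR without mouse 25 (2.21, adjusted p = 0.0427) or without mouse 26 (2.16, adjusted p = 0.0383). Relative to CAA as a whole, in the added edgeR test, CAA-4 was higher by 2.04 (adjusted p = 0.0147), the 1 member called of 6, where 14.6% of 151 transcripts passed. That call was lost without mouse 5 (edgeR adjusted p = 0.0603), 6 (0.0665), 17 (1.33, 0.294), 18 (0.0700) or 19 (0.0674).

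The other 5 members, like CAA-4, overlapped between the heart groups. TAA-1 had 1487, 1415, 1574 and 1555 CPM in AAV9-GFP mice 6, 5, 19 and 14 and 1213, 1212, 1424 and 1558 in AAV9-DdCBE mice 17, 18, 25 and 26, with a log2 change of -0.16 (edgeR adjusted p = 0.467). TAA-2 had 3023, 3156, 3195 and 2767 against 1983, 2377, 2968 and 3029 CPM in the same mice, with a log2 change of -0.23 (edgeR adjusted p = 0.355). In TMM-scaled CPM the 10X hearts were the lowest of the 8 for both TAA isodecoders. As a percent of nuclear tRNA counts they were not: TAA-1 took 0.286% in mouse 17, the highest of the 8, and 0.247% in mouse 18, within the 0.222% to 0.273% of the other 6. TAA-2 took 0.467% in mouse 17, the lowest of the 8, and 0.484% in mouse 18, within the 0.4803% to 0.5196% of the others.

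CAA-3 had 3266, 3469, 3315 and 1759.95 CPM in AAV9-GFP mice 6, 5, 19 and 14, and 1574, 1587, 2137 and 3176 in AAV9-DdCBE mice 17, 18, 25 and 26. Mouse 14 lay near the 10X hearts, below the other AAV9-GFP mice, and mouse 26 lay close to the latter. The log2 change was -0.48 (edgeR adjusted p = 0.323). CAA-2 ran from 1402 to 2656 CPM in AAV9-GFP and from 1511 to 2438 in AAV9-DdCBE (-0.32, edgeR adjusted p = 0.373), and CAA-1 from 814 to 1389.9 and from 885 to 1277 (-0.13, edgeR adjusted p = 0.683).

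**Figure D5:**
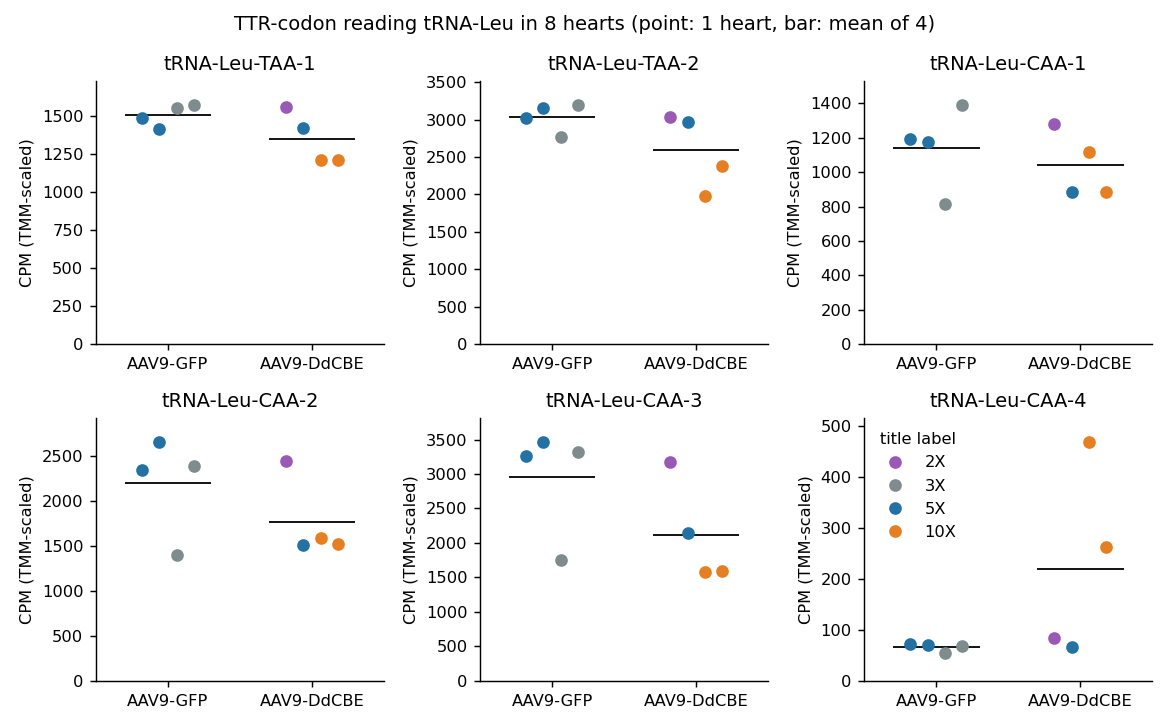
TMM-scaled CPM of the 6 isodecoders in 8 hearts, 1 point per heart coloured by the X label of its title, with the mean of 4 as a bar. In the CAA-4 panel the 10X hearts stand at 469.7 and 262 CPM, above the other 6 at 54.2 to 84.6.

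A further comparison set the 2 hearts labelled 10X against the 4 AAV9-GFP hearts. This split came from an earlier look at these data, and what 10X means is not given. Its p-values, and their stability over reruns on the same hearts, are therefore no independent support. No AAV9-GFP heart was labelled 10X, so the label and the editor cannot be told apart here. CAA-4 was higher by 2.47 (SE 0.27, edgeR adjusted p = 1.19e-04), a level 5.53-fold higher, and was called under every alternative run, at 1.98 to 2.83. CAA-3 was lower, at -0.90 (SE 0.27, edgeR adjusted p = 0.0243), and TAA-2 was lower, at -0.48 (SE 0.15, edgeR adjusted p = 0.0259). CAA-2 (-0.50), TAA-1 (-0.31) and CAA-1 (-0.19) did not pass (edgeR adjusted p = 0.109, 0.0839 and 0.500).

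The count was 3 of 6 members, 1 higher and 2 lower, where 51.7% of all transcripts passed, 23.9% higher and 27.8% lower, and the members' median was -0.40 beside -0.23 for all transcripts. That median of all transcripts moved to -0.04 with DESeq2 and in nuclear transcripts alone. Relative to the median of all transcripts CAA-4 stood at 2.69, CAA-3 at -0.67 and TAA-2 at -0.25. The calls of CAA-3 and TAA-2 were lost under several alternatives. CAA-3 missed the threshold without mouse 5 (-0.64, edgeR adjusted p = 0.126), 6 (-0.68, 0.108), 17 (-0.90, 0.168), 18 (-0.90, 0.115), 25 (-0.72, 0.0649) or 26 (-0.73, 0.0628), and in nuclear transcripts alone (-0.62, 0.0978). Without mouse 17 or 18 a single 10X heart was left, its spread taken from the other hearts, and the change was as large as with both. TAA-2 missed it in 11 of 13 alternatives. With the low-count filter set by X label, the setting first run and replaced after its values were seen, CAA-3 (-0.71, edgeR adjusted p = 0.0668) and TAA-2 (-0.28, edgeR adjusted p = 0.163) were not called, and the 2 of 7 members called were CAA-4 and TAA-3, the latter on 23 and 5 counts. The count was 1 of 6 without mouse 5, 6, 25 or 26, where 50, 45, 63 and 62 transcripts passed in all. Without mouse 14 it was 5 of 6, CAA-2 (-0.66, edgeR adjusted p = 0.00176) and TAA-1 (-0.30, edgeR adjusted p = 0.0338) being added. In that run 121 transcripts passed in all, beside 93 in the main run.

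Shares within the anticodon, which are free of scaling between libraries, showed the same 2 hearts apart. CAA-4 held 9.90% of CAA counts in mouse 17 (95% Wilson interval 9.41% to 10.4%) and 6.16% in mouse 18 (5.70% to 6.65%), against 0.944% to 1.44% in the other 6 hearts. In the added edgeR test CAA-4 was higher relative to CAA as a whole in the 10X hearts, by 2.96 (adjusted p = 4.03e-08), where 33.8% of the transcripts passed. That held under every alternative run, and CAA-4 was the 1 member called of 6. CAA-3 held 33.2% and 37.3% of CAA counts in mice 17 and 18, against 43.7% to 47.5% in the other 6, and its change relative to CAA did not pass (-0.40, edgeR adjusted p = 0.325). CAA-3 was 0.994 and 1.04 times the CAA-2 count in the 10X hearts and 1.26 to 1.41 times in the others. TAA-1 held 37.9% and 33.8% of TAA counts in the 10X hearts, above and within the 31.0% to 36.0% of the other 6. Mitochondrial tRNA took 59.9% and 44.5% of all counts in mice 17 and 18, above the 37.4% to 43.3% of the AAV9-GFP hearts, and 39.2% and 38.9% in mice 25 and 26, and its part in the result was not tested.

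Neither anticodon total passed in the hearts. On the totals' own scaling, over 4 against 4 hearts, the TAA total changed by -0.01 (edgeR adjusted p = 0.975) and the CAA total by -0.10 (edgeR adjusted p = 0.934), where 0% of the 70 totals passed. Against AAV9-GFP the 10X hearts differed by -0.05 for TAA (edgeR adjusted p = 0.675) and -0.11 for CAA (edgeR adjusted p = 0.865), again with 0% of the totals passing. At an unadjusted p under 0.05 neither total passed in either comparison, and DESeq2 called neither. The size of these values rested on the scaling. With the factors of the transcript table the 10X hearts differed by -0.42 for TAA (edgeR adjusted p = 0.0517) and -0.50 for CAA (0.127), and the 4 against 4 hearts by -0.20 and -0.31 (both 0.403), none past the threshold. Without mouse 18 the TAA total differed by -0.32 for the remaining 10X heart, mouse 17, a single heart whose spread is taken from the others. The total passed in that run, as did many totals of other anticodons.

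The share of TAA among TTR-reader counts varied between hearts without following treatment. It was 39.6%, 38.3%, 39.98% and 51.7% in AAV9-GFP mice 6, 5, 19 and 14, and 40.3%, 45.8%, 48.8% and 39.7% in AAV9-DdCBE mice 17, 18, 25 and 26. Mouse 14 had the highest share of the 8, and the groups overlapped. In the hearts the patterns most like TAA-1 were those of tRNA-Ser-GCT-3/4 (r = 0.96), tRNA-Ser-CGA-1 (r = 0.93) and tRNA-Ser-AGA-2/1 (r = 0.92), with TAA-2 at 0.84 and CAA-4 at -0.90 over the same 8 hearts, which share scaling and a common separation of the 10X pair.

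Other leucine and serine tRNAs in the 10X hearts also moved both ways. Of 9 other nuclear tRNA-Leu transcripts 1 rose (tRNA-Leu-AAG-3, 0.77) and 4 fell (most tRNA-Leu-CAG-2, -0.68), and of 11 nuclear tRNA-Ser 1 rose (tRNA-Ser-GCT-1, 1.43) and 4 fell (most tRNA-Ser-CGA-1, -0.79). Of all transcripts 51.7% passed in this comparison, 23.9% higher and 27.8% lower. The mitochondrial tRNA-Leu with the TAA anticodon changed by 0.60 (edgeR adjusted p = 0.0696) and that with TAG by 0.02 (edgeR adjusted p = 0.948). Over 4 against 4 hearts none of these transcripts passed with edgeR. Their median log2 change there was -0.25 for the other nuclear tRNA-Leu.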

How the data were processed

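The authors deposited raw read counts per tRNA transcript, whole numbers in 1 table for 8 MEF libraries and 1 for 8 hearts, with no normalization. Per the labels' protocols, RNA extracted at mildly acidic pH went through oxidation and beta-elimination before mim-tRNAseq library preparation, with sequencing on a NextSeq 500. The submitters' processing notes name cutadapt 3.5 and the build mm39. For the aligner, the counter and reads that fit several isodecoders, the methods were not given in the sources used here, so reads may be split between isodecoders. Anticodon totals avoid that choice within an anticodon. All columns were matched to sample titles, and no column was left out.

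Tests used edgeR 4.0.16 and limma 3.58.1 under R 4.3.3 (TMM, filterByExpr by group with a minimum count of 10 and a minimum total of 15, glmQLFit, glmQLFTest), with Benjamini-Hochberg adjustment over all transcripts tested in a table and a threshold of 0.05. The 8 MEF libraries entered 1 fit by line. The hearts entered 1 fit by treatment and another with AAV9-DdCBE split by X label. Anticodon totals (74 tested in MEFs, 70 in hearts) were fitted the same way with their own TMM factors. SE is the absolute log2 change over the square root of F. CPM are TMM-scaled with the factors of the transcript table unless stated. A count of 0 allows 3 counts. Alternatives were DESeq2 1.42.0, library totals, nuclear transcripts only, no filter, a replicate block and leaving out each library. The transcript table's scaling for the totals and a filter by X label were added after the data were seen. So was an edgeR test (diffSpliceDGE, no SE given) of each isodecoder relative to its anticodon, which was run, dropped after its results were seen and put back. It covers anticodons with at least 2 tested transcripts, 169 transcripts in MEFs and 151 in hearts. The pipeline was tested on simulated data. No 2 replicates were copies: their counts differed with a chi-square of at least 93.9 per degree of freedom.

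All 9 members are named, with values per library for those past the filter. Other transcripts are named as the largest significant rise or fall in the lists of other leucine and serine tRNAs, as the mitochondrial tRNA-Leu pair, or as the 3 most correlated with TAA-1. The members and lists were chosen with earlier results of these data known. A RefSeq table named 3 TAA and 4 CAA leucine tRNA genes, 0 of which matched the members' names, so no sequence or position is given.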

Additional observations from a re-analysis of the deposited data

Results flagged for a closer look

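In groups of 4 hearts, 32 sets of member values were examined for a heart far from the other 3, a check that chance fails in about 1 of 20 groups, and 4 stood out. CAA-2 in AAV9-DdCBE mouse 26 was 2438 CPM, above 1511 to 1583 in the other 3. In AAV9-GFP mouse 14, CAA-3 was 1759.95 CPM (3266 to 3469 in the other 3), the CAA total was 4029.8 CPM (6868 to 7371) and the TTR-reader total was 8352 CPM (11378 to 11941). The values of mouse 14 are not independent, because CAA-3 is part of both totals.

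The change against Ctrl_1 differed between the Cl lines in the F test for TAA-1 (edgeR adjusted p = 3.03e-04), TAA-2 (0.00824), CAA-3 (0.0209) and the TAA total (0.00715). These tests overlap, since TAA-1 and TAA-2 make up nearly all of the TAA total.

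TAA-3, which the low-count filter left out of the tests, had 23 counts in mouse 17 and 5 in mouse 18, against 0 in each AAV9-GFP heart.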

How the results depend on the processing

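Of 72 single results (a member or an anticodon total in a comparison), 42 kept their side of the threshold under every alternative run, and 0 called values changed sign, while values that were never called could. Between runs the number of transcripts called in all moved as well, so a move in the members' count is not by itself particular to them. The number of members called moved as follows. For Cl_3 against Cl_2 it was 2 with DESeq2, which called 15 transcripts in all, 0 with the replicate block and 0 whichever library was left out. It was 1 for the hearts with DESeq2 (27 transcripts in all), and 1 for the 10X hearts in nuclear transcripts only (67 in all). Leaving out a library gave 2 to 4 for Cl_2 against Ctrl_1, 1 to 3 for Cl_2 against Cl_1, 1 to 3 for Cl_3 against Cl_1, 1 to 3 among lines, 0 to 1 in the hearts and 1 to 5 in the 10X hearts. Of the 2 totals, Cl_3 against Cl_1 had 2 called with DESeq2, nuclear transcripts only or transcript scaling (added later) and 0 with no filter. The lines differed in 2 totals with DESeq2 and 0 with no filter. Cl_2 against Ctrl_1 had 1 with library totals, no filter or transcript scaling, Cl_3 against Ctrl_1 had 1 with transcript scaling, and Cl_3 against Cl_2 had 0 with library totals, no filter or transcript scaling. Leaving out a library gave 1 to 2, 0 to 1, 0 to 1, 0 to 1 and 0 to 1 for Cl_2 against Ctrl_1, Cl_3 against Cl_1, Cl_3 against Cl_2, among lines and the 10X hearts.

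For the CAA total, Cl_3 against Cl_1 was -0.30 with DESeq2 (adjusted p = 0.0189), -0.28 in nuclear transcripts only (edgeR adjusted p = 0.0482) and -0.37 with transcript scaling (0.0356). The adjusted p among lines was 0.0336 with DESeq2. Cl_2 against Ctrl_1 was 0.29 with library totals (edgeR adjusted p = 0.0523), 0.29 with no filter (0.0556), 0.18 with transcript scaling (0.166), and 0.25 to 0.32 without a library. For the TAA total, Cl_3 against Ctrl_1 was -0.21 with transcript scaling (edgeR adjusted p = 0.00927). Cl_3 against Cl_2 was 0.23 with library totals (edgeR adjusted p = 0.103), 0.24 with no filter (0.442), 0.20 with transcript scaling (0.126), and 0.20 to 0.26 without a library. Cl_3 against Cl_1 was 0.34 with no filter (edgeR adjusted p = 0.140) and 0.32 to 0.37 without a library. Among lines the edgeR adjusted p was 0.185 with no filter and 0.00779 to 0.122 without a library, and the 10X hearts gave -0.317 to -0.0427 without a heart. The cause of these shifts was not tested.

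The main fit did not pair the MEF libraries by replicate number. Deviations of like-numbered replicates correlated at r = 0.07 to 0.25 over 6 pairs of lines, all positive, and a shared replicate effect was not tested. The replicate block ended the call of TAA-2 for Cl_3 against Cl_2 (edgeR adjusted p = 0.0578). Relative to TAA, it added calls of TAA-1 in Cl_3 (edgeR adjusted p = 0.0157), and of TAA-2 in Cl_1 (0.0261) and for Cl_2 against Cl_1 (0.0356). With 2 passages a line and 2 hearts labelled 10X, the number of samples limits these results. CAA-1 in the MEFs, and TAA-3 throughout, are limited by counts.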
